A study of Mus musculus with 2 samples.

Results

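Transcripts of the nuclear splicing machinery were compared between Adam19-/- and Adam19+/+ neural crest cells sorted from E14.5 mouse hearts. The set holds SR splicing factors, the kinases that phosphorylate them, other splicing regulators rich in arginine and serine, and 4 long non-coding RNAs found wholly or partly in the nucleus. Members were chosen by gene symbol, and 34 of the 37 listed genes had a transcript cluster (the array's unit of a gene) annotated to that symbol alone, out of 19938 genes measured in this way. Srsf7, Clk2 and Neat1 had none and are not analysed here as members. Where a gene had several clusters, the brightest stood for it. The list was drawn up with results of these arrays known, so the differences below describe these samples and support nothing further.

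Both groups were on the C57BL/6 background and carried Wnt1-Cre and a heterozygous R26tdTomato reporter. The mutant group was Adam19-/- and the control group was Adam19+/+. Adam19 encodes a membrane-anchored metalloprotease. Wnt1-Cre is active in the neural crest, so red fluorescent cells sorted from collagenase-digested hearts are descendants of that lineage. In the genotype labels the Cre line goes with the reporter and no floxed Adam19 allele is named. There was 1 array per genotype, so every difference is that between 2 samples, without replicates and without a test. The sources used here do not give how many embryos were pooled. Effects of the array and of the genotype cannot be told apart.

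Values are log2 signals on the Affymetrix Mouse Gene 1.0 ST array, and a difference is the log2 signal of Adam19-/- minus that of Adam19+/+ cells. A gene was kept when its signal on at least 1 array lay above the median of all genes, 8.01, which is a middle level and not a limit of detection. This left 10122 genes, among them all 34 members, each above that level on both arrays. Their differences had a median of 0.04, with the central 95% between -0.20 and 0.30. A difference was counted when it reached 1.2-fold, or 0.26 on the log2 scale. That is slightly more than 0.24, the 95th percentile of the gap between 2 clusters of the same gene within these arrays, taken over 583 genes. This gap holds no variation between samples.

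Adam19 itself was at 9.77 in Adam19-/- cells, against 11.62 in Adam19+/+ cells, a log2 difference of -1.85 in the direction of the labels. The smooth muscle genes Acta2, Tagln, Myh11 and Cnn1, the glial factor Sox10 and the catecholamine enzymes Th and Dbh all mark cell types that the cardiac neural crest forms, and all lay above the floor on both arrays. The samples differed in other cell markers too. All 8 leukocyte markers were higher in Adam19-/- cells, with a summed linear signal of 2289 there against 1699 in Adam19+/+ cells. Such counts are to be read beside all genes, of which 10303 of 19938 were higher at any signal and 65.2% above the floor. Th and Dbh, the autonomic neuron markers measured, were higher by 0.46 and 0.43, with a sum of 3301 in Adam19-/- and 2439 in Adam19+/+ cells. All 3 erythroid markers were higher, with a sum of 2768 in Adam19-/- and 2263 in Adam19+/+ cells. Of the mesenchyme markers, Sox9 differed by 0.57, Twist1 by 0.40 and Postn by -0.08. Of 8 cardiomyocyte markers 7 were higher, and the sum of the 8 was 4691 in Adam19-/- and 4278 in Adam19+/+ cells. The brightest of them, Tnnt2, was the lower one, at 11.02 in Adam19-/- cells, against 11.12 in Adam19+/+ cells. All 4 smooth muscle markers were lower, with a sum of 23135 in Adam19-/- and 24959 in Adam19+/+ cells. On the Y chromosome, Kdm5d, Uty and Eif2s3y differed by -1.17, -1.42 and -1.62. All 3 lay above the floor in Adam19+/+ cells only. With 1 array per genotype, effects of a difference in the sex of the embryos and of the genotype cannot be told apart. Ptprc, the pan-leukocyte gene, lay under the floor on both arrays, at 6.26 in Adam19-/- cells, against 6.05 in Adam19+/+ cells. The leukocyte markers Csf1r, Tyrobp and Cx3cr1 were under it on both arrays too, and C1qb and Fcer1g passed it only in Adam19-/- cells. What part these shifts have in the values below was not tested. Less RNA per cell and fewer cells of a type cannot be told apart in such samples.

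SR proteins bind exonic enhancers through RNA recognition motifs and recruit the spliceosome through tails of alternating arginine and serine, called RS domains. CLK kinases phosphorylate these tails in the nucleus, and SRPK kinases do so mainly in the cytoplasm, which sends SR proteins into the nucleus. Many of these proteins gather in nuclear speckles, where Malat1 RNA also resides. Several SR and CLK genes are known to limit their own mRNA by poison exons or by introns that keep the transcript in the nucleus.

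Most members were slightly lower in Adam19-/- cells. Of the 34, 27 were lower and 7 higher, with a median difference of -0.06 and a range from -0.40 to 0.14. Over all 10122 genes, 33.7% were lower and 65.2% higher. At the 1.2-fold threshold 6 members, or 17.6%, were lower, against 1.13% of all genes. No member was 1.2-fold higher, against 4.06% of all genes. At 1.1-fold, 9 members (26.5%) were lower and 1 (2.94%) was higher, against 5.45% and 19.1% of all genes. At 1.5-fold, no member was lower or higher, against 0.0889% and 0.148% of all genes. Measured from the median of all genes rather than from 0, 31 of the 34 members lay below it, as did 5061 of all 10122 genes. Related lists, taken up below, leaned likewise. Below it lay 22 of 29 other RS-domain and speckle proteins, 19 of 22 hnRNPs and 9 of 10 paraspeckle proteins. The same held for 9 of 10 genes in a list of kinases, phosphatases and importer of RS domains. Nearer to an even split were the core spliceosome, with 19 of 34, and tissue splicing regulators, with 12 of 19. The 6 members past the threshold were Firre, Nktr, Malat1, Pnisr, Clk1 and Srsf5. Srsf5, at -0.29, was the nearest inside it, and Ccnl1, at -0.23, the nearest outside.

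**Figure D1:**
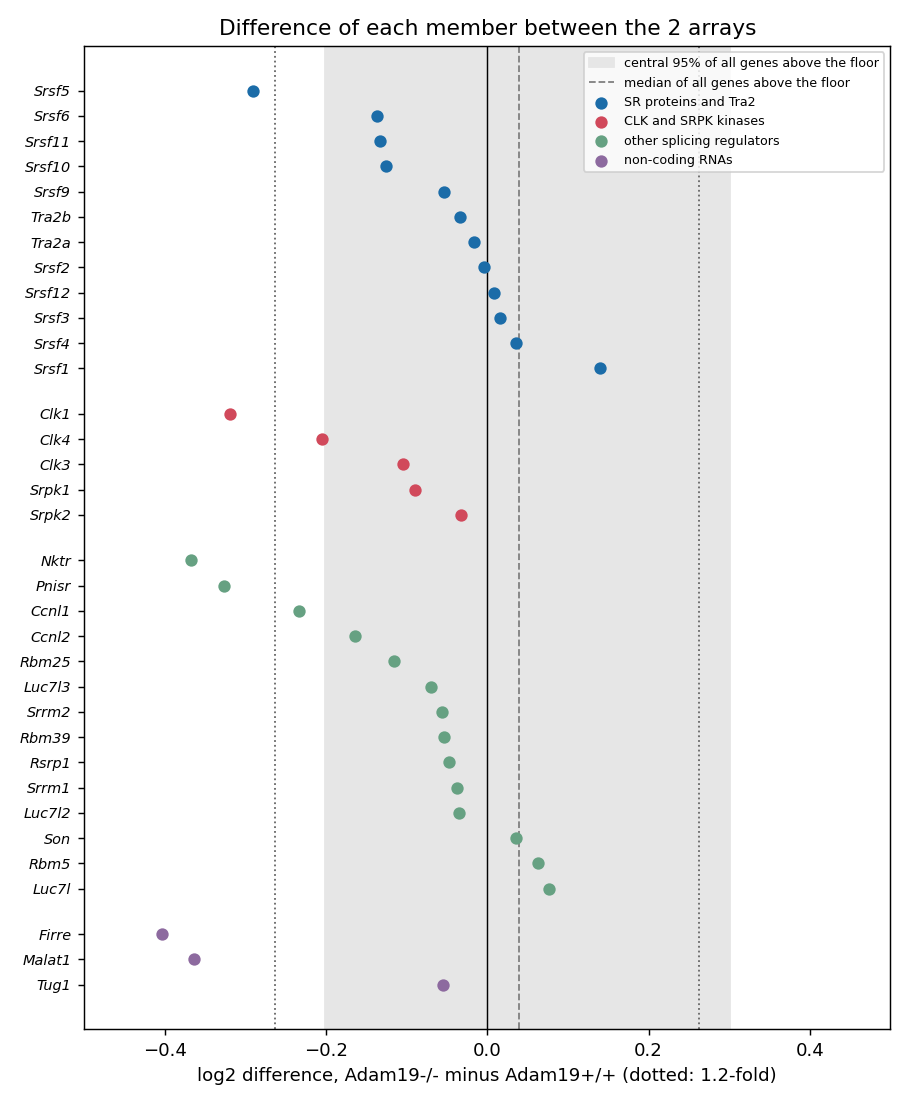
Log2 difference, Adam19-/- minus Adam19+/+ (horizontal axis), of each of the 34 members (1 array per genotype), coloured by role. The grey band is the central 95% of all 10122 genes, from -0.20 to 0.30, the dashed line their median of 0.04, and the dotted lines mark 1.2-fold; 6 members lie left of the lower dotted line and none right of the upper one.

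The shares of all genes past the threshold depend on how the arrays are scaled. Lower and higher shares were 1.58% and 2.68% after quantile normalisation, 1.78% and 2.42% after centring on the median, and 2.09% and 2.11% after removal of a lowess trend with signal. Under each of these scalings 7 members were lower past the threshold and none was higher. By mean signal, 20 of the 34 members fell in the highest quartile of genes above the floor. In that quartile the median difference was -0.05 for members and 0.02 for all genes, with 15 of 20 members lower against 39.2% of all genes. In the third quartile, counted from the dimmest, all 8 members were lower, with a median of -0.12, against 0.04 and 33.2% for all genes there.

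Among the SR proteins and the related Tra2 factors, 8 of 12 were lower and 4 higher, with a median difference of -0.025. A single member was 1.2-fold lower. Srsf5, an SR protein with a pair of RNA recognition motifs, was at 9.84 in Adam19-/- cells, against 10.13 in Adam19+/+ cells, a log2 difference of -0.29. It was the 88th lowest of the 10122 genes. Its near relatives did not share a value. Srsf6 was at 11.37 in Adam19-/- cells, against 11.51 in Adam19+/+ cells, lower by 0.14, whereas Srsf4 was at 10.96 in Adam19-/- cells, against 10.92 in Adam19+/+ cells, a log2 difference of 0.04.

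Srsf1, the founding SR protein, which promotes inclusion of many exons, was the member with the highest difference, at 11.17 in Adam19-/- cells, against 11.03 in Adam19+/+ cells, or 0.14. Srsf9, which resembles Srsf1 in its domains, differed by -0.05, at 11.43 in Adam19-/- cells, against 11.48 in Adam19+/+ cells. Srsf2, a marker of nuclear speckles, was nearly level at 12.198 in Adam19-/- cells, against 12.202 in Adam19+/+ cells. Srsf3, the smallest SR protein, which couples splicing to mRNA export, was at 12.93 in Adam19-/- cells, against 12.92 in Adam19+/+ cells.

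Srsf10, a splicing repressor when dephosphorylated, was at 11.99 in Adam19-/- cells, against 12.12 in Adam19+/+ cells, a log2 difference of -0.125. Its relative Srsf12 was at 8.81 on both arrays, with a difference of 0.0089 as deposited and of -0.03 after quantile normalisation. Srsf11 was at 10.19 in Adam19-/- cells, against 10.32 in Adam19+/+ cells, lower by 0.13. The sequence-specific activators Tra2a and Tra2b, which bind purine-rich enhancers, differed by -0.02 and -0.03. Tra2a was at 11.04 in Adam19-/- cells, against 11.06 in Adam19+/+ cells, and Tra2b was at 12.56 in Adam19-/- cells, against 12.59 in Adam19+/+ cells. Apart from Srsf5, every SR and Tra2 gene measured differed by 0.14 or less in either direction, taking the brightest cluster of each.

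All 5 kinases measured were lower in Adam19-/- cells, with a median difference of -0.10. Clk1 was at 10.96 in Adam19-/- cells, against 11.28 in Adam19+/+ cells, a log2 difference of -0.32, the 68th lowest of all genes. Clk4, its closest relative, was at 9.57 in Adam19-/- cells, against 9.77 in Adam19+/+ cells, a log2 difference of -0.20. Clk3 was at 10.44 in Adam19-/- cells, against 10.54 in Adam19+/+ cells, lower by 0.10. The nuclear CLK kinases were therefore ordered Clk1, Clk4 and Clk3 by the size of the difference. The SRPK kinases had smaller ones: Srpk1 was at 11.26 in Adam19-/- cells, against 11.35 in Adam19+/+ cells, and Srpk2 at 10.22 in Adam19-/- cells, against 10.25 in Adam19+/+ cells. Only Clk1 passed the 1.2-fold threshold.

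Of the 14 other splicing regulators, 11 were lower and 3 higher, and their median difference was -0.06. Nktr, a large cyclophilin with an RS domain, was at 9.72 in Adam19-/- cells, against 10.09 in Adam19+/+ cells, a log2 difference of -0.37. Pnisr, a speckle protein rich in serine and arginine, was at 9.53 in Adam19-/- cells, against 9.85 in Adam19+/+ cells, a log2 difference of -0.33. They ranked 43rd and 63rd from the lowest. Both lay outside the central 95% of all genes.

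The cyclins L, which pair with CDK11 kinases at speckles, came next. Ccnl1 was at 10.13 in Adam19-/- cells, against 10.37 in Adam19+/+ cells, a log2 difference of -0.23, and Ccnl2 was at 9.29 in Adam19-/- cells, against 9.46 in Adam19+/+ cells, a log2 difference of -0.16. Rbm25, which acts on 5' splice site choice, was at 10.82 in Adam19-/- cells, against 10.93 in Adam19+/+ cells, a log2 difference of -0.115. Luc7l3, a protein tied to the U1 particle that reads 5' splice sites, was at 10.17 in Adam19-/- cells, against 10.24 in Adam19+/+ cells, lower by 0.07. Its relative Luc7l2 differed by -0.03 and Luc7l by 0.08, so the LUC7-like family was divided in sign.

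The scaffold proteins of nuclear speckles differed little. Son was at 11.04 in Adam19-/- cells, against 11.01 in Adam19+/+ cells, and Srrm2 at 12.87 in Adam19-/- cells, against 12.93 in Adam19+/+ cells. Their differences were 0.04 and -0.06. The splicing coactivators Srrm1 and Rbm39 differed by -0.04 and -0.05, and Rsrp1 differed by -0.05. Rbm5, a regulator of alternative exons, was at 11.04 in Adam19-/- cells, against 10.98 in Adam19+/+ cells, a log2 difference of 0.06. The lower values of Nktr, Pnisr and Ccnl1 were thus not matched by the speckle scaffolds. Of the 7 higher members, Srsf1, Luc7l and Rbm5 stayed above 0 under all 3 scalings. After centring alone, Srsf3, Srsf4 and Son lay just below 0, at -0.02, -0.0039 and -0.0045, and Srsf12 was below 0 under all 3.

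All 3 non-coding RNAs measured were lower in Adam19-/- cells, with a median of -0.36. Malat1, an abundant RNA of nuclear speckles, was at 11.48 in Adam19-/- cells, against 11.85 in Adam19+/+ cells, a log2 difference of -0.36 (1.29-fold lower), the 45th lowest of all genes. Firre, an X-linked RNA that holds chromatin contacts in the nucleus, was at 8.02 in Adam19-/- cells, against 8.42 in Adam19+/+ cells, a log2 difference of -0.40 (1.32-fold lower). Tug1, an RNA found in nucleus and cytoplasm, was at 12.39 in Adam19-/- cells, against 12.44 in Adam19+/+ cells, a log2 difference of -0.06. Malat1 and Firre thus stood apart from Tug1 on these arrays. A brighter cluster annotated to both Malat1 and Ramp2, outside the rule for members, differed by -0.04. Firre lay barely above the floor in Adam19-/- cells.

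Firre also had the lowest difference of the 342 X-linked genes above the floor. They split into 245 higher and 92 lower, around a median of 0.06. It was the only member on the X chromosome, and the others were spread over 12 autosomes, with up to 7 on chromosome 4. The samples differ in Y-linked signal, as given above, and its part in the value of Firre was not tested. Xist, which coats the inactive X in female cells, was at 11.14 in Adam19-/- cells, against 11.25 in Adam19+/+ cells.

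**Figure D2:**
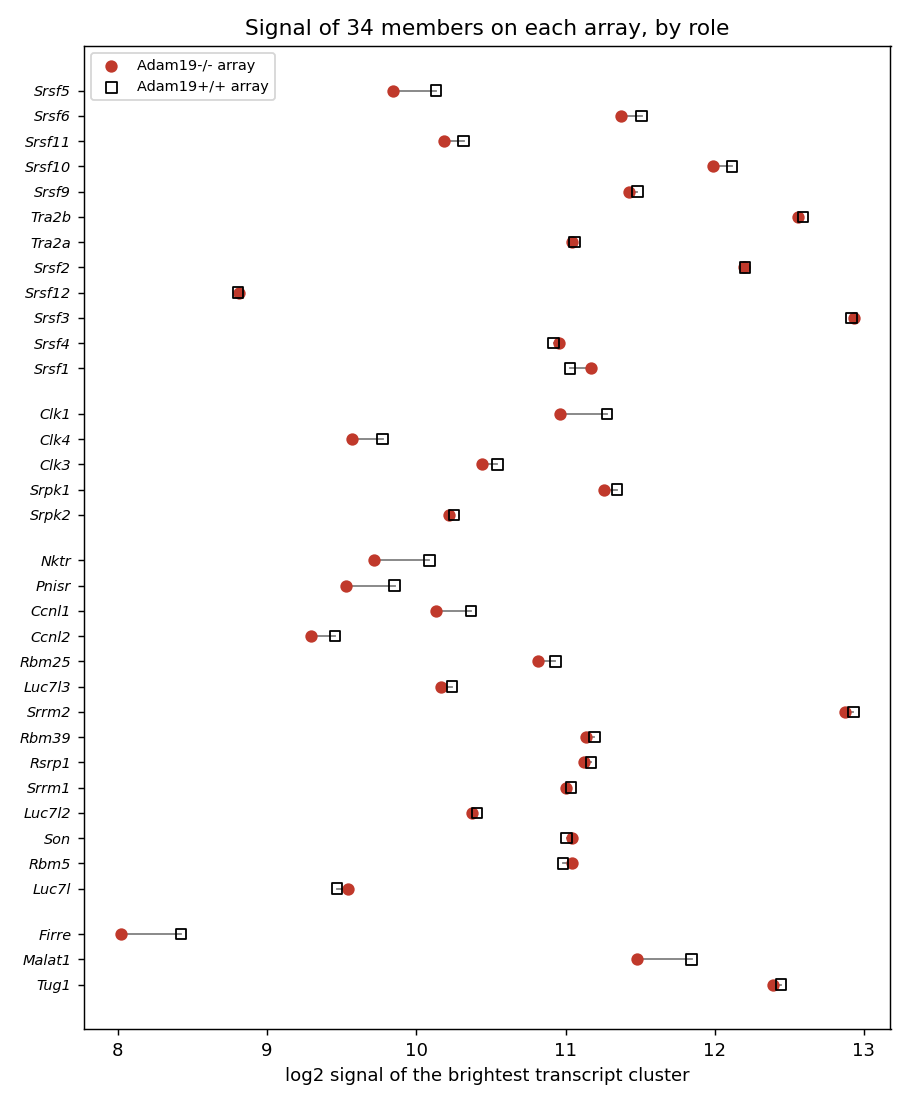
Log2 signal of the brightest transcript cluster (horizontal axis) of each of the 34 members on the Adam19-/- array (red circles) and the Adam19+/+ array (open squares), grouped by role from SR proteins at the top to non-coding RNAs at the bottom. The widest gaps are those of Firre, Nktr, Malat1, Pnisr, Clk1 and Srsf5, each with the circle to the left; levels of different genes come from different probes and are not to be compared.

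Further clusters gave a second reading for 6 members on the same arrays. Of their 10 further clusters, 8 were lower and 2 higher in Adam19-/- cells, between -0.29 and 0.15. All 4 clusters of Rbm25 were lower, at -0.18, -0.28 and -0.21 for the further ones, each further from 0 than the -0.115 of the brightest. The 2 clusters of Srsf10 gave -0.125 and -0.11. For Tra2b the further cluster was lower by 0.13, against 0.03 for the brightest. The clusters of Tra2a went both ways, at -0.02, 0.15 and 0.02, so this gene has no settled sign here.

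Clusters of a gene are not always separate readings. The 2 clusters of Srsf5 are annotated with the same 6 transcript accessions and gave -0.29 both times. The brighter 2 of the 3 clusters of Srsf3 also share 6 accessions, with differences of 0.02 and -0.02, and the dimmest gave -0.07. Near-identical copies of these transcripts may share signal, which adds uncertainty to the values of Srsf3 and Srsf5. Such sharing was not tested. Without both genes, 5 of 32 members were 1.2-fold lower, against 1.12% of all genes, and 26 of 32 were lower by any amount, against 33.7%.

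**Figure D3:**
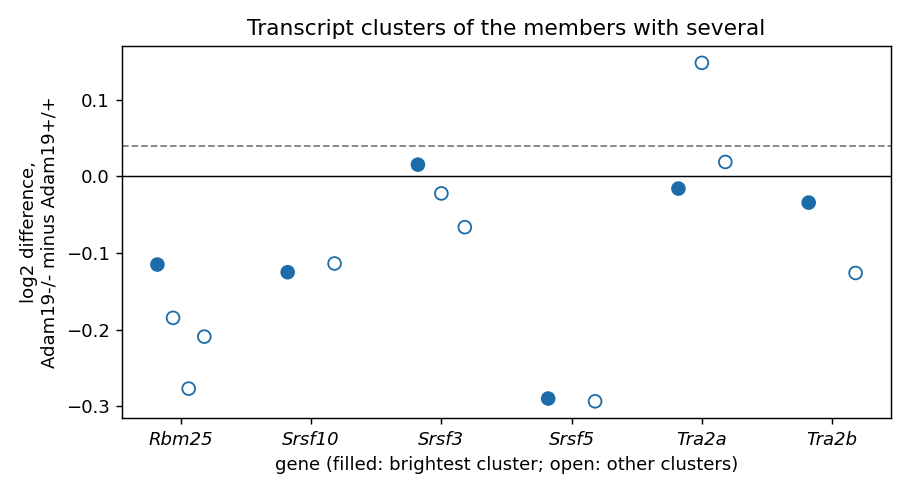
Log2 difference, Adam19-/- minus Adam19+/+ (vertical axis), of every transcript cluster of the 6 members that have several; filled points are the brightest cluster, open points the others, and the dashed line is the median of all genes, 0.04. All 4 clusters of Rbm25 lie below 0, the 2 of Srsf5 coincide at -0.29, and those of Tra2a lie on both sides.

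The sequences upstream of the members are shown for those past the 1.2-fold threshold that have an entry in the RefSeq promoter table of build GRCm38.p6, to let the starts of the lower genes be compared. Each is the 250 bases before the annotated start, 5' to 3' on the gene's strand. Capitals mark any match, on either strand, to 5 motifs: the core of the TATA box (TATAAA), the core of the CCAAT box (CCAAT), the core of the GC box (GGGCGG), the core of an ETS site (CCGGAAG) and the cyclic AMP response element (TGACGTCA). The regions are chr12:80945249-80945498 on the plus strand for Srsf5, chr9:121718931-121719180 on the plus strand for Nktr, chr19:5802673-5802922 on the minus strand for Malat1 and chrX:50635322-50635571 on the minus strand for Firre.
Srsf5: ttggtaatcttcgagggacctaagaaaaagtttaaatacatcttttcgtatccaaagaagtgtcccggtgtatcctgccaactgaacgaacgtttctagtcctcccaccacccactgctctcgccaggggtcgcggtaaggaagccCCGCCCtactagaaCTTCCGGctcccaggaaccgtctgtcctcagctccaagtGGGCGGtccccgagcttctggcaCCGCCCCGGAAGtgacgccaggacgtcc
Nktr: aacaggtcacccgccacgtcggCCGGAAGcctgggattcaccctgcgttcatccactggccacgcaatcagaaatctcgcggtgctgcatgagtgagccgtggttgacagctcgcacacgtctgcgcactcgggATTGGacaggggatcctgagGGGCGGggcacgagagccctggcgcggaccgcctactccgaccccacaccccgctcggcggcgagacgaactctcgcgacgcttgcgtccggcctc
Malat1: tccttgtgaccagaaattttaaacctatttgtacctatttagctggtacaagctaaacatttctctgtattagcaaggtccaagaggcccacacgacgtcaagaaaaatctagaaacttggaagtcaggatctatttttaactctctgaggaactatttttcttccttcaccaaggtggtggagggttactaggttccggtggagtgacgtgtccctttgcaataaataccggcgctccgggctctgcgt
Firre: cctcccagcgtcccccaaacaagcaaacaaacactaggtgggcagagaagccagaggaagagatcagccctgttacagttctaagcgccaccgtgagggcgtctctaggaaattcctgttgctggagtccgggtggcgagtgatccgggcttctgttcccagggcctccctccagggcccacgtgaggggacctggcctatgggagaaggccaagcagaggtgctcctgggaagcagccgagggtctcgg

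The 4 windows differ in their letters. Srsf5 holds 3 matches to GGGCGG and 2 to CCGGAAG, and a GC box match and an ETS match overlap near its 3' end. Nktr holds 1 match to the GC box, 1 to the ETS core and 1 to the CCAAT box. Malat1 and Firre hold no match to these 5 motifs, and their GC contents were 44.0% and 61.6%, against 56.8% for Srsf5 and 67.2% for Nktr.

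Windows were found for 31 of the 34 members. GGGCGG occurred upstream of 22 of these 31 genes, or 71.0%, against 35.4% of all 27025 genes with a window. CCGGAAG occurred in 6, or 19.4%, against 7.83% of all genes. TGACGTCA occurred in 3, or 9.68%, against 1.77%, namely Ccnl1, Clk4 and Tra2a, whose differences were -0.23, -0.20 and -0.02. CCAAT occurred in 13, or 41.9%, against 37.5%, and TATAAA in 3, or 9.68%, against 14.3%. The member windows were rich in GC, with a median of 64.4% against 52.4% for all genes, so GC-rich motifs are to be read beside that. All members lay above the floor, whereas the 27025 genes were not limited to such genes. The motifs were chosen with the members' differences known, and a match is a description of letters.

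The rest of the splicing machinery was divided. Among other RS-domain and speckle proteins, 19 of 29 above the floor were lower, 9 higher and 1 equal, with a median of -0.05. None reached 1.2-fold. Fnbp4 was at 9.64 in Adam19-/- cells, against 9.89 in Adam19+/+ cells, a log2 difference of -0.25, and Pnn, a speckle-associated RS protein, differed by -0.14. Thrap3, a speckle protein of splicing and mRNA export, was at 10.65 in Adam19-/- cells, against 10.50 in Adam19+/+ cells, a log2 difference of 0.15. The list therefore leaned the same way as the members, with smaller differences at its low end.

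The paraspeckle proteins, which assemble on Neat1 RNA, were lower in 9 of 10, with a median of -0.07. Ewsr1, Tardbp and Pspc1 differed by -0.13 each. The hnRNPs, which often oppose SR proteins at exons, were lower in 15 of 22 and higher in 7, with a median of -0.04. Hnrnpdl was at 10.84 in Adam19-/- cells, against 11.07 in Adam19+/+ cells, a log2 difference of -0.23, and Hnrnpll and Hnrnph2 differed by -0.21 and -0.13. No gene of these lists was 1.2-fold lower or higher.

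The core spliceosome did not lean the same way. It had 23 genes higher and 11 lower among the 34 above the floor, and its median was 0.03, close to the 0.04 of all genes. Sf3b4, a subunit of the U2 particle, was at 9.47 in Adam19-/- cells, against 9.21 in Adam19+/+ cells, a log2 difference of 0.26, just under the threshold. Sf3a2, also of the U2 particle, and Snrpa, of the U1 particle, both differed by 0.20. Genes of nonsense-mediated decay and the exon junction complex were higher in 8 of 10, against 65.2% of all genes, with a median of 0.03. Of these 10, 6 lay below the median of all genes. Smg5 differed by -0.14, Casc3 by 0.10 and Smg8, past the floor only in Adam19-/- cells, by 0.09.

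Partners of the RS-domain kinases were lower in 6 of 10 and higher in 4, with a median of -0.011. Measured from the median of all genes, 9 of the 10 lay below it. Cdk13, a kinase of RNA polymerase II, was at 10.45 in Adam19-/- cells, against 10.62 in Adam19+/+ cells, a log2 difference of -0.17. Ppp1cb, a catalytic subunit of protein phosphatase 1, differed by -0.12, and the splicing kinase Prpf4b by -0.10. Tissue splicing regulators were higher in 10 of 19 and lower in 9, with a median of 0.0094, and 12 lay below the median of all genes. Mbnl3 was the only splicing gene of these lists past the threshold upwards, at 9.27 in Adam19-/- cells, against 8.77 in Adam19+/+ cells, a log2 difference of 0.50. Rbpms2 differed by 0.18 and Celf5, past the floor only in Adam19+/+ cells, by -0.13.

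Among other long non-coding RNAs, 6 of the 8 measured were lower and 2 higher at any signal, and the median was -0.17. Of all 19938 genes, 6808 were lower and 10303 higher at any signal. Above the floor lay 5 of the 8, with 4 lower and 1 higher, against 33.7% and 65.2% of all genes there. The imprinted Meg3 was at 10.51 in Adam19-/- cells, against 11.15 in Adam19+/+ cells, a log2 difference of -0.64. Rian, a neighbour of Meg3 in the same imprinted cluster and past the floor only in Adam19+/+ cells, was at 7.95 in Adam19-/- cells, against 8.16 in Adam19+/+ cells, a log2 difference of -0.21. Airn, an imprinted RNA of the Igf2r locus, was at 11.30 in Adam19-/- cells, against 11.52 in Adam19+/+ cells, a log2 difference of -0.22. Norad, which acts in the cytoplasm, was at 11.66 in Adam19-/- cells, against 11.60 in Adam19+/+ cells, a log2 difference of 0.07. The host RNAs of small nucleolar RNAs, Snhg5, Gas5 and Snhg17, differed by -0.12, 0.10 and 0.0031.

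**Figure D4:**
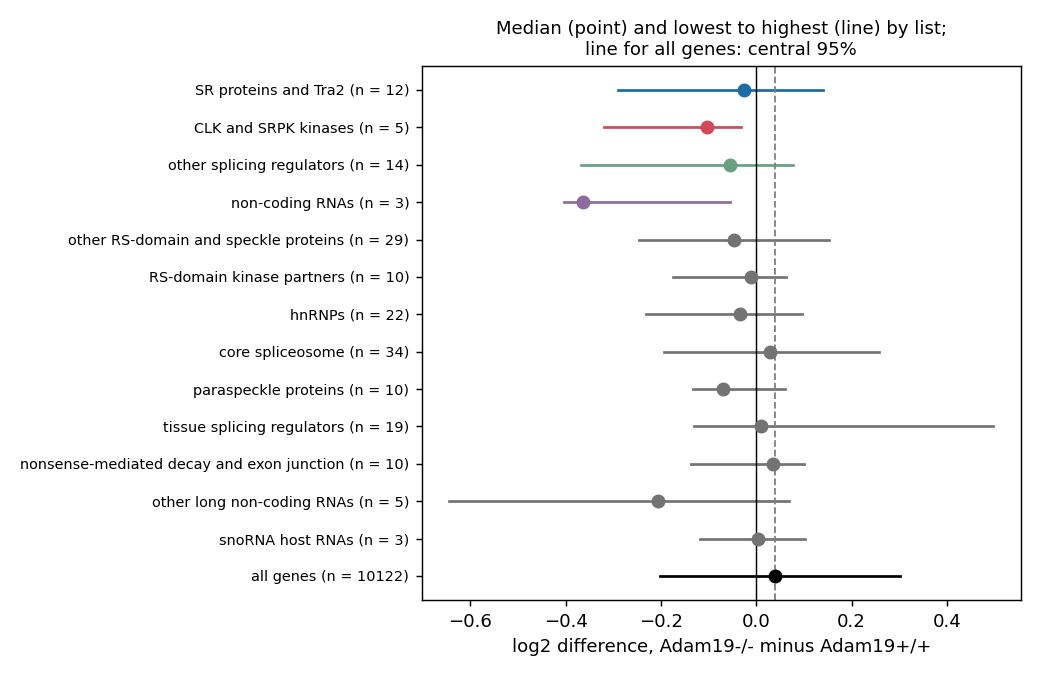
Median log2 difference, Adam19-/- minus Adam19+/+ (points, horizontal axis), with the lowest and highest member (lines), for the 4 role groups in colour and 9 related lists in grey, counting genes above the floor. For all 10122 genes the line is the central 95%, and the point for the other long non-coding RNAs is the value of Rian, which passed the floor on the Adam19+/+ array alone. The non-coding members lie at -0.36, and the core spliceosome, at 0.03, lies near the dashed line at the median of all genes.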

How the data were processed

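The authors deposited 1 table of log2 signals for 28853 transcript clusters, 1 column per array. The sources used here do not state background correction, normalisation, probe summary or log base; the range of values was read as log2. The number of arrays limits the precision. Gene names came from GEO's platform annotation (2016), updated through Entrez identifiers with a RefSeq table of GRCm38.p6. Of the clusters 21789 had 1 symbol, 1621 several and 5443 no gene listed; those with several or none were left out, and 21698 matched the gene table.

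The members, lists, motifs and threshold were chosen with earlier results of these data known. The rule for named genes took every member and up to 3 genes above the floor with the largest absolute difference from each other list; members of marker lists, Xist and Norad are named in addition. Steps were tested on simulated data (Python 3.11.15, numpy 2.4.6, pandas 2.3.3, statsmodels 0.14.6, matplotlib 3.10.9). Alternatives covered quantile normalisation, centring, a lowess trend, the mean over clusters, adding 32 to the linear signal, the floor and the fold. With no replicates, a list's median was called moved when it shifted by more than 0.05, the median gap between clusters of a gene. Protein features were planned and are not analysed here.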

Additional observations from a re-analysis of the deposited data

How the results depend on the processing

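With 1 array per genotype, no replicate could be left out, and no paired analysis was possible because each genotype had a single array. The medians of the 4 role groups and of all members stayed below 0 under quantile normalisation, centring, the lowess trend, the mean over clusters, the added 32, both other floors and, for all members, without Srsf3 and Srsf5, a setting chosen after seeing the data. Centring, which subtracts 0.04 from every gene, and removal of the floor, which all 34 members pass, could not have raised a median. The median of the non-coding RNAs was -0.21 with the floor at the 75th percentile, which left 2 of them and removed Firre. The count of members past the threshold downwards lay between 5 and 7 under these settings. At 1.5-fold 0 members were lower, against 0.0889% of all genes, and at 1.1-fold 9 were lower and 1, Srsf1, was higher, against 5.45% and 19.1%. Srsf5, Clk1, Pnisr, Nktr and Malat1 stayed 1.2-fold lower under all 7 alternatives that gave them a value and Firre under all 6. Their differences ranged between -0.47 and -0.28. Not every alternative could have changed this. A floor leaves the value of a gene as it is, as does the mean over clusters for those with 1 cluster, all but Srsf5. Centring lowers every value alike. Only quantile normalisation, the lowess trend and the added 32 could have brought all 6 nearer to 0. With the mean over clusters, Tra2a differed by 0.05 and Rbm25 by -0.20. All alternatives used clusters with 1 symbol. The brighter cluster annotated to both Malat1 and Ramp2, which differed by -0.04, entered none of them.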

Other observations

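Long non-coding RNAs as a class were compared with all genes, without a test. With the mean of both arrays above the floor, a setting chosen after seeing the data, 68 genes had the RefSeq biotype lncRNA. Of these, 8 were 1.2-fold lower in Adam19-/- cells, or 11.8%, and 2 were higher, or 2.94%, against 1.05% and 3.76% of all 9969 genes. The median difference of the 68 was 0.0081, against 0.039 for all genes. Without the members and the other named long non-coding RNAs, 5 of 60 were 1.2-fold lower, or 8.33%, and 40.0% were lower by any amount, against 33.8% of all genes. The median of the 60 was 0.0324. Requiring a single array above the floor gave 10 of 74, of which 2 passed it only in Adam19+/+ cells. Most of these RNAs were dim. The quartile of lowest signal held 48 of the 74 and 6 of the 10. In that quartile 2.05% of all genes were 1.2-fold lower. AI506816, chosen after its value was seen, was at 11.32 in Adam19-/- cells, against 11.65 in Adam19+/+ cells.

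A pair of clusters annotated to a member together with another gene fell outside the rule. The cluster of Clk2 and Gm45927 was at 10.51 in Adam19-/- cells, against 10.52 in Adam19+/+ cells. The cluster annotated to Malat1 and Ramp2 was at 14.02 in Adam19-/- cells, against 14.06 in Adam19+/+ cells, which differ by -0.04, unlike the -0.36 of the cluster of Malat1 alone. Which of the genes gives the signal of these clusters was not tested.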
